A study of Mus musculus with 4 samples.

Results

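The genes described here are 9 genes of the amino acid stress response, Atf4, Atf5, Trib3, Asns, Psat1, Phgdh, Aldh18a1, Chac1 and Sesn2, in mouse myeloid-derived suppressor cells (MDSCs), immature myeloid cells that restrain T cell responses. Every probe set that the platform annotation assigns to a single gene symbol, that of a member, was taken. This gave 22 of the 45101 probe sets on the array, for 9 of the 18194 genes with a probe set of their own. Of the 22 probe sets, 20 lay above the median of at least 1 array, and all 9 members had such a probe set.

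The study asked how a long noncoding RNA, named lncMDSC in the labels and lnc-C/EBPβ in the paper, acts on gene expression in MDSCs. Fresh marrow of C57BL/6 mice was given lentivirus and kept for 4 days in GM-CSF and IL-6, which turns its cells into MDSCs in culture. The kdLNC cells carried an shRNA against lncMDSC and their control, kdNC, a control shRNA, while the oeLNC cells carried an lncMDSC overexpression vector and their control, oeNC, the overexpression control vector. Each of the 4 groups was measured on 1 Affymetrix expression array, and no probe set for lncMDSC was analysed here, so the knockdown and the overexpression were not checked on these arrays. With no replicates there is no test and no error of any difference, and precision is limited by having 4 arrays.

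When a cell runs short of an amino acid, uncharged tRNA activates the kinase GCN2, which phosphorylates the translation initiation factor eIF2α. General translation is then lowered while the mRNA of the transcription factor ATF4 is translated better, so that ATF4 activity can differ with no difference in Atf4 mRNA. ATF4 pairs with C/EBP proteins on C/EBP-ATF response elements and switches on genes for amino acid synthesis, amino acid uptake and tRNA charging, along with feedback inhibitors such as TRIB3.

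The promoters are shown because such elements are short and can be seen in the sequence. The RefSeq promoter windows (build GRCm38.p6) run 250 bases before to 50 bases after an annotated start, and 11 windows were found for the 9 members. The letters TGATGNAA, the core of the C/EBP-ATF response element, were searched on both strands and stand in 3 of the 11 member windows, against 3.97% of 32851 windows of 300 bases. The related letters TGNNGCAAT, which were chosen after the members' promoters had been seen and whose matches do not overlap the first motif in the 2 genes that hold both, also stand in 3 of the 11 windows, against 2.12% of all windows. The stretches that hold matches follow 5′ to 3′ on the gene's strand, with the matches in capitals.
Asns, chr6:7693210-7693269, minus strand: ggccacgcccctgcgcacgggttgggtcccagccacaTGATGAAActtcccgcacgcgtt
Chac1, chr2:119350992-119351061, plus strand: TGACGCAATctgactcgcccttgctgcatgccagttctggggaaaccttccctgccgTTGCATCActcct
Psat1, chr19:15925160-15925209, minus strand: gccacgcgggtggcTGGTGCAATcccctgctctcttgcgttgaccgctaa
Trib3 before the start, chr2:152344061-152344110, minus strand: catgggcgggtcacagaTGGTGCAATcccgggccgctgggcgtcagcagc
Trib3 after the start, chr2:152344027-152344056, minus strand: tagctcaggtTTACATCAgccgggcgggga
The Asns match begins 23 bases before the start. In Chac1 the 2 matches begin 250 and 193 bases before it, and in Psat1 the match begins 136 bases before it. In Trib3 one match begins 33 bases before the start and the other lies just after it. A match is a description of these letters, and no binding was measured.

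In all 4 arrays the 8 myeloid markers on the list, among them Itgam, Lyz2 and Cd33, were above the 50th percentile. The arrays differed in cell type markers as well. The paper divides MDSCs into monocytic and polymorphonuclear subsets, so neutrophil markers can belong to the cells under study. Of 7 mature neutrophil markers, 5 were lower in kdLNC by 1.5-fold or more, where 1.96% of all genes were. Lcn2 and Mmp8 were higher, by 0.12 and 0.11. The 7 had a summed intensity of 17800 in kdLNC and 25900 in kdNC and a median log2 difference of −1.07. Of 4 eosinophil markers 3 were lower in kdLNC by 1.5-fold or more, with sums of 1245 in kdLNC and 2328 in kdNC. The 6 B cell markers summed to 1586 in oeLNC, 1758 in oeNC, 3618 in kdLNC and 3552 in kdNC. Array medians spanned 4.17 to 4.24 on the log2 scale. The difference between 3′ and 5′ probe sets of β-actin, a sign of RNA quality, was 1.96 in kdLNC, 1.61 in kdNC, 1.97 in oeLNC and 1.96 in oeNC (log2). The part of these differences in the values below was not tested, and in bulk RNA fewer cells of a type and less RNA per cell cannot be told apart.

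The enzymes of serine, asparagine and proline synthesis gave the most regular pattern among the 9 genes. All 13 probe sets of Asns, Psat1, Phgdh and Aldh18a1 read highest of all 4 arrays in kdLNC, above kdNC in each case. In the overexpression pair 12 of the 13 were lower in oeLNC than in oeNC, and 11 of the 13 read lowest of all 4 arrays in oeLNC. At the brightest probe set of each gene the median log2 difference was 0.48 between kdLNC and kdNC and −0.39 between oeLNC and oeNC, while the 2 control arrays, oeNC minus kdNC, differed by a median of −0.12. At that probe set all 4 enzymes were highest in kdLNC and lowest in oeLNC. Of 12092 genes above the filter, 21.5% were highest in kdLNC, 25.6% were lowest in oeLNC and 10.6% were both. The differences were small, since none of the 4 reached 1.5-fold at its brightest probe set in either pair. The 13 probe sets belong to 4 genes and are not separate observations. Most are of the _x_at type, whose probes may cross-hybridise with other transcripts. In the knockdown pair that type gave a higher difference than the _at type in 76.2% of 328 genes. The dimmest of the 13 (1437620_x_at) did not lie above the median of any array.

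Asns, asparagine synthetase, makes asparagine from aspartate and glutamine. Its brightest probe set (1451095_at) read 605.8 in kdLNC and 428 in kdNC, and 399.9 in oeLNC and 424.3 in oeNC. The kdLNC array stood apart, and the other 3 lay close together. The level was 1.42-fold higher in kdLNC than in kdNC, a log2 difference of 0.50, and the overexpression pair differed by −0.09. Over the 500 genes of most similar level, the difference between the controls had an SD of 0.57, the only measure of spread these arrays give, and it holds vector, culture and array together. This value is called the control SD below. The second Asns probe set (1433966_x_at) read 531.4 in kdLNC and 279.6 in kdNC, and 295.1 in oeLNC and 357.6 in oeNC, so that kdLNC was 1.90-fold higher than kdNC. Both probe sets placed kdLNC highest, and they differed in the order of the other 3 arrays.

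Psat1 and Phgdh stand in the serine synthesis pathway, in which PHGDH oxidises 3-phosphoglycerate and PSAT1 carries out the transamination that follows. Psat1 (1451064_a_at) read 270 in kdLNC and 225.7 in kdNC, and 131.7 in oeLNC and 183.1 in oeNC. The log2 difference was 0.26 in the knockdown pair and −0.48 in the overexpression pair, both less than the control SD of 0.61. Its second probe set (1454607_s_at), of a type that can match transcripts of several genes, read 267 in kdLNC and 159.9 in kdNC, and 113.1 in oeLNC and 165.3 in oeNC. That probe set differed by 0.74 in the knockdown pair, past 1.5-fold, and by −0.55 in the overexpression pair, and both probe sets of Psat1 gave the same direction in each pair.

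Phgdh was measured only by 4 probe sets of the _x_at type, whose probes may cross-hybridise with other transcripts, and a further 2 shared with other gene symbols were left out. The brightest (1437621_x_at) read 1013 in kdLNC and 737.7 in kdNC, and 505.2 in oeLNC and 627.8 in oeNC, differences of 0.46 and −0.31. The other 3 differed by 0.05 to 0.40 in the knockdown pair and by −0.13 to 0.02 in the overexpression pair. All 4 read highest in kdLNC, and 3 of the 4 read lowest in oeLNC. The exception, the dimmest of the 4 (1426658_x_at), read 219.1 in oeLNC and 215.9 in oeNC.

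Aldh18a1, which makes the glutamate semialdehyde that leads to proline and ornithine, had 5 probe sets. The brightest (1437325_x_at) read 394.6 in kdLNC and 266.7 in kdNC, and 204.1 in oeLNC and 283.8 in oeNC. The knockdown pair differed by 0.56, slightly more than the control SD of 0.53 and the only brightest probe set of the 9 genes past its SD in that pair. The overexpression pair differed by −0.48. The probe set of the _at type, designed to match the gene alone (1415836_at), was dim and read 39.7 in kdLNC and 34.6 in kdNC, and 28.2 in oeLNC and 29.9 in oeNC. Its differences of 0.20 and −0.08 had the direction of the brighter ones at a smaller size, and all 5 probe sets were highest in kdLNC and lowest in oeLNC. The dimmest (1437620_x_at), not above the filter, read 9.81 in kdLNC and 8.74 in kdNC, and 8.43 in oeLNC and 8.74 in oeNC.

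**Figure D1:**
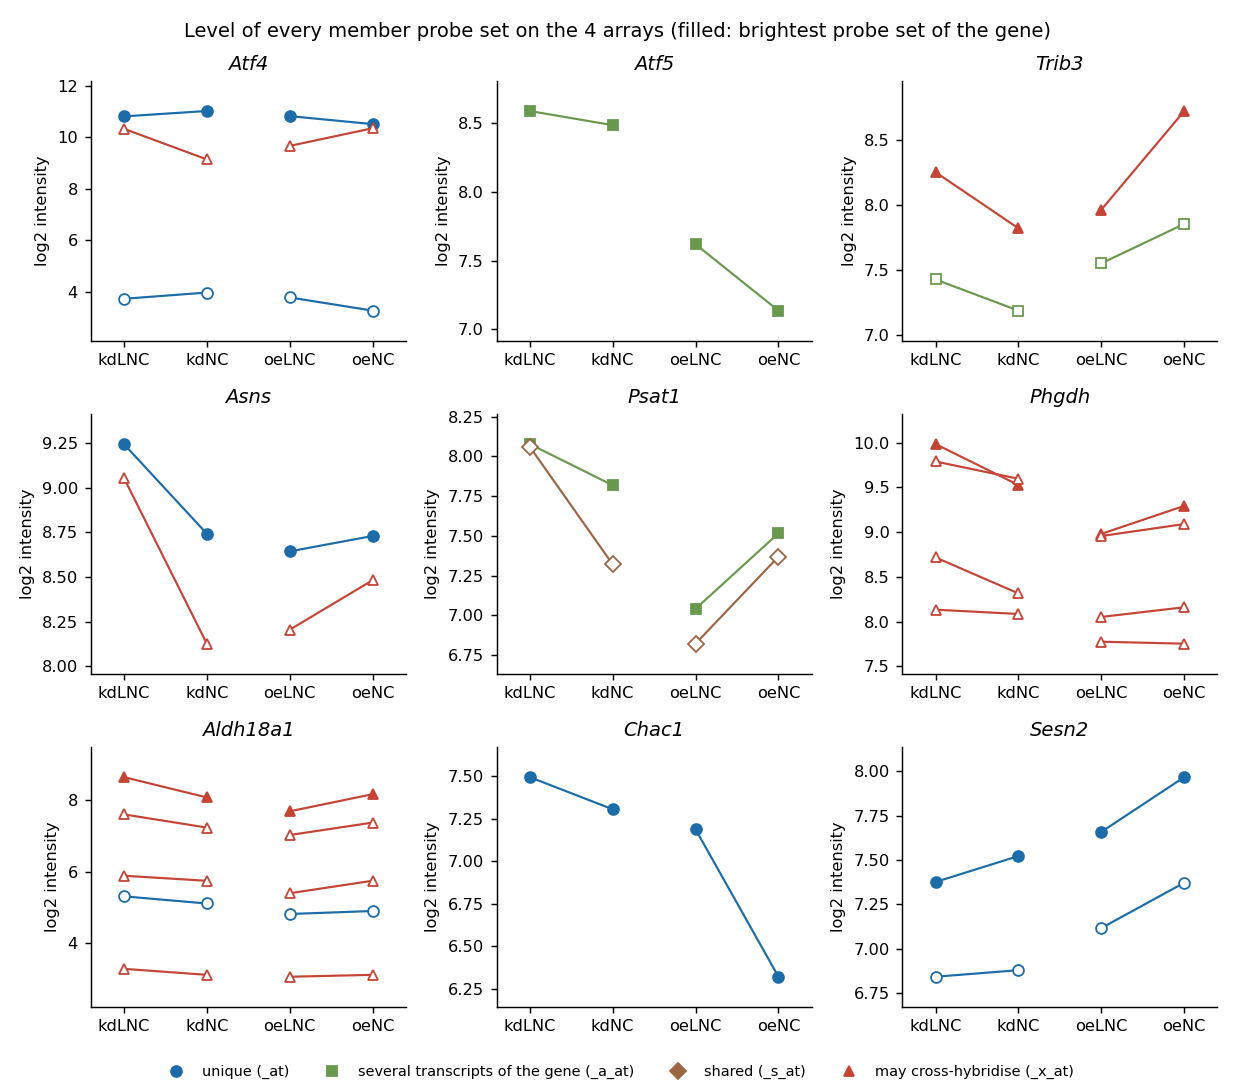
Log2 intensity of each of the 22 probe sets (y axis, scaled per panel) on the 4 arrays (x axis: kdLNC, kdNC, oeLNC, oeNC, 1 array each), with a panel for each of the 9 genes, lines joining the arrays of a pair and a filled marker for the brightest probe set. The 4 enzymes are highest in kdLNC at all 13 probe sets, Atf5 reads higher on both shRNA arrays than on both overexpression-vector arrays, Chac1 is lowest in oeNC, and the 2 bright probe sets of Atf4 move in opposite directions.

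The transcription factors themselves gave no such regular pattern. Atf4, the central factor of the response, read 1801 in kdLNC and 2080 in kdNC, and 1806 in oeLNC and 1457 in oeNC at its brightest probe set (1448135_at). The log2 difference was −0.21 in the knockdown pair and 0.31 in the overexpression pair, against −0.51 between oeNC and kdNC, so both were smaller than the difference between the controls. At this probe set Atf4 was the 1 member of 9 that was lower in kdLNC and higher in oeLNC. A dim probe set of the same type (1439258_at), not above the filter, read 13.2 in kdLNC and 15.7 in kdNC, and 13.7 in oeLNC and 9.63 in oeNC, and gave the same order of the 4 arrays.

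The third Atf4 probe set (1438992_x_at) went the other way in every comparison. It read 1287 in kdLNC and 564.2 in kdNC, and 810.8 in oeLNC and 1306 in oeNC, differences of 1.19, −0.69 and, between oeNC and kdNC, 1.21. On this probe set Atf4 would be 2.28-fold higher in kdLNC, and on the brightest it was 1.16-fold lower, so no direction is given for Atf4 mRNA. Read at this probe set, Atf4 would have the direction of the enzymes in both pairs.

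The disagreement was compared with other genes measured by both kinds of probe set. Among 328 such genes with a mean log2 level above 6, the _x_at probe sets differed from the _at probe sets of the same gene by a median of 0.18 in the knockdown pair and were higher in 250 of the 328 (76.2%). The median was −0.05 in the overexpression pair (higher in 46.0%) and 0.13 between oeNC and kdNC (higher in 67.4%). Within Atf4 the difference was 1.40 in the knockdown pair, the highest of the 328 genes, and −0.998 in the overexpression pair, where 4 of the 328 genes were at or below it. Among the members other than Atf4, all 10 _x_at probe sets read above kdNC in kdLNC, with a median of 0.38, and 3 of the 5 _at probe sets did, with a median of 0.19. Asns and Aldh18a1, the enzymes with an _at probe set, were higher in kdLNC at that probe set also. Phgdh, Psat1, Trib3 and Atf5 have no _at probe set. How far the shift between probe set types enters their values was not tested within these genes. After each difference was centred on probe sets of the same type and level, the brightest Phgdh probe set differed by 0.31 in the knockdown pair and −0.20 in the overexpression pair, and Aldh18a1 by 0.42 and −0.36. With the same centring Trib3 differed by 0.28 and −0.65, and Psat1 by 0.32 and −0.33.

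**Figure D2:**
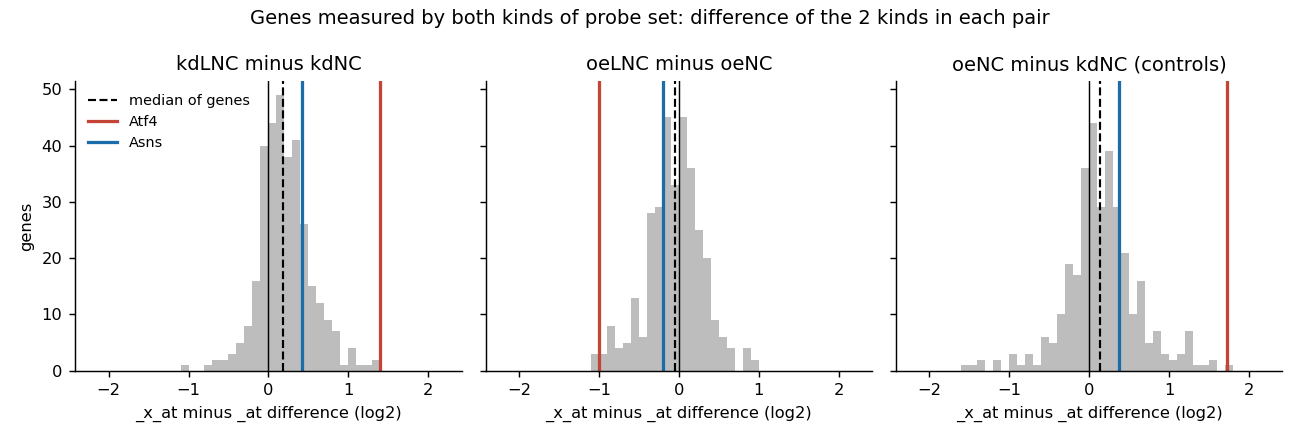
Histograms over 328 genes measured by both _x_at and _at probe sets (y axis, number of genes) of the log2 difference of the _x_at probe sets minus that of the _at probe sets (x axis), in panels for each pair and for the 2 controls. The dashed line marks the median, and coloured lines mark Atf4 at 1.40, −0.998 and 1.73, near the edge of each distribution, and Asns at 0.43, −0.19 and 0.37.

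Atf5 encodes a related factor whose translation is also raised when eIF2α is phosphorylated. Its single probe set (1425927_a_at) read 384.5 in kdLNC and 358.1 in kdNC, and 196.6 in oeLNC and 140.7 in oeNC. The pairs did not overlap, and the control arrays alone differed by −1.35, more than either the knockdown difference of 0.10 or the overexpression difference of 0.48. With a range of 1.45 over the 4 arrays Atf5 varied most among the 9 genes at the brightest probe set. The 5 genes nearest to it in centred log2 level over the 4 arrays, of 10657 ranked, were 5031439G07Rik, Agps, Rere, Dcp2 and Prkca, at distances of 0.07 to 0.13.

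Trib3 encodes a pseudokinase that is induced by ATF4 and holds it back. Its brightest probe set (1456225_x_at) read 304.9 in kdLNC and 226.1 in kdNC, and 249.7 in oeLNC and 422.3 in oeNC. It was 1.69-fold lower in oeLNC than in oeNC, a log2 difference of −0.76 beyond the control SD of 0.55, and it differed by 0.43 in the knockdown pair. The highest reading was that of oeNC, and the controls differed by 0.90. The second probe set (1426065_a_at) read 172.2 in kdLNC and 146 in kdNC, and 187.6 in oeLNC and 231.5 in oeNC, with the same directions at a smaller size of 0.24 and −0.30.

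Chac1 encodes an enzyme that breaks down glutathione and is among the strongly ATF4-dependent genes. It read 180.4 in kdLNC and 158.3 in kdNC, and 145.8 in oeLNC and 79.98 in oeNC at its 1 probe set (1451382_at). The oeNC array stood below the other 3, and the level in oeLNC was 1.82-fold higher than in oeNC, a log2 difference of 0.87. The knockdown pair differed by 0.19, and oeNC was 1.98-fold lower than kdNC. Its nearest genes by the same measure were Rnf14, Ptger2, Peak1, Tmem80 and Tigd2, at distances of 0.05 to 0.16. Their differences in the overexpression pair were 0.70 to 0.83. These genes were chosen for a level close to that of Chac1 on the same arrays. That they also read lowest in oeNC follows from this choice and is no separate observation.

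Sesn2 encodes a leucine-binding protein that lowers mTORC1 activity. Its brightest probe set (1425139_at) read 166.2 in kdLNC and 183.8 in kdNC, and 202 in oeLNC and 250 in oeNC. The second (1451599_at) read 114.8 in kdLNC and 117.8 in kdNC, and 138.8 in oeLNC and 165.6 in oeNC. Both probe sets gave the same order, with both overexpression-vector arrays above both shRNA arrays. The differences of −0.15 and −0.31 at the brightest probe set were less than its control SD of 0.61.

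**Figure D3:**
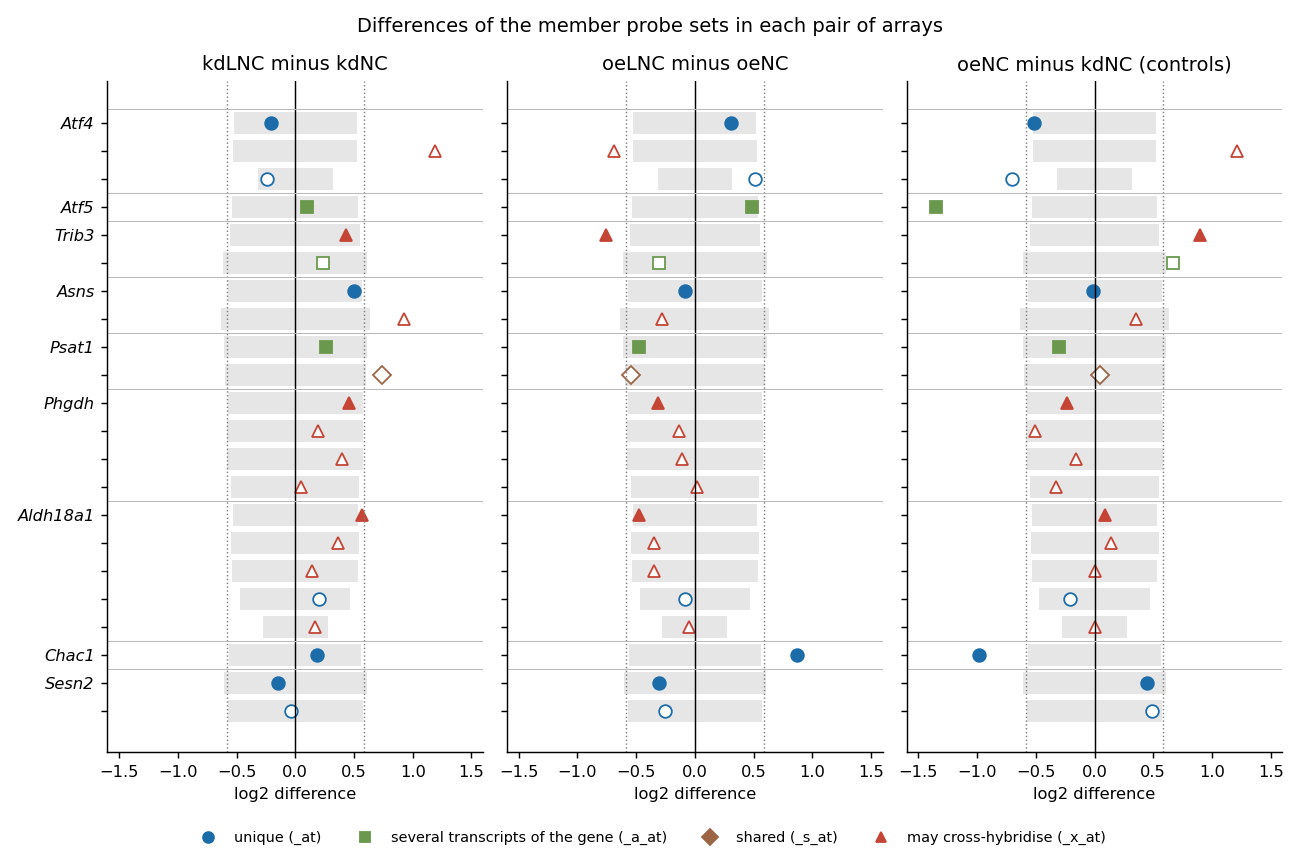
Log2 differences of the 22 probe sets (rows, grouped by gene) in the knockdown pair, the overexpression pair and between the controls (x axis), with markers by probe set type and filled for the brightest. Grey bars span 1 control SD on either side of 0, and dotted lines mark 1.5-fold. In the knockdown pair 18 of the 22 lie right of 0, in the overexpression pair 17 lie left of it, and most lie inside the grey bars.

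Across the 9 genes at the brightest probe set, 7 were higher and 2 lower in kdLNC than in kdNC. None reached 1.5-fold in either direction, where 2.36% of 11505 genes were past it upward and 1.96% downward. None reached 2-fold, where 0.478% of genes did upward and 0.356% downward. The median of the 9 was 0.26, and that of all genes above the filter was −0.05. In the overexpression pair 3 were higher and 6 lower in oeLNC than in oeNC. Chac1 was at least 1.5-fold higher, where 3.93% of 11869 genes were, and Trib3 at least 1.5-fold lower, where 5.38% were. Neither reached 2-fold, which 0.295% of genes did upward and 0.809% downward. The median of the 9 was −0.31, against −0.01 over all genes. In all, 5 of the 9, Trib3 and the 4 enzymes, exceeded their control in kdLNC and stayed below it in oeLNC, as did 23.3% of 12092 genes. With Atf4 read at its _x_at probe set the count was 6, and Trib3 in the knockdown pair differed by −0.019 against the mean of both controls. Of those genes 40.7% exceeded the control in kdLNC and 51.6% were below it in oeLNC.

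Over all genes, more passed 1.5-fold between the control arrays than between the treated array and its control in either pair. For the 4 enzymes the median difference between the controls was smaller, −0.12 against 0.48 in the knockdown pair and −0.39 in the overexpression pair. Between oeNC and kdNC, Trib3 was at least 1.5-fold higher, where 9.22% of 11723 genes were, and Atf5 and Chac1 at least 1.5-fold lower, where 12.2% were. Atf5 was also past 2-fold, as were 4% of genes downward and 3.03% upward. The difference was within 1 control SD for 8 of the 9 members in the knockdown pair, 7 in the overexpression pair and 6 between the controls. The share of all genes within their control SD was not counted. The control SDs of the members, 0.52 to 0.61, lie near the log2 of 1.5, 0.585. In the knockdown pair 2.36% of all genes passed 1.5-fold upward and 1.96% downward, so most genes lay within that fold.

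The wider pathway was read from lists of other genes, described by the same counts. Upstream, none of 9 eIF2α kinase and phosphatase genes was past 1.5-fold in the knockdown pair, with a median of −0.12. In the overexpression pair only Ppp1r15b, a subunit that directs the phosphatase to eIF2α, was, at 0.62, and its second probe set gave −0.22. The median of the 9 in that pair was −0.15. Ppp1r15a, the inducible counterpart, read 310.6 in kdLNC and 347.8 in kdNC, and 528 in oeLNC and 704 in oeNC, with the larger step between the vectors. Eif2ak2, the kinase that senses double-stranded RNA, differed by −0.20 and 0.38.

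Among the other transcription factors and feedback genes of the ATF4 programme, none of 10 was at least 1.5-fold higher in kdLNC and 2 were lower. Of all genes, 2.36% were higher and 1.96% lower by that fold. Ddit3, which encodes the stress factor CHOP, read 673.4 in kdLNC and 1025 in kdNC, and 1437 in oeLNC and 1100 in oeNC. It was 1.52-fold lower in kdLNC, opposite to the enzymes, and its second probe set gave −0.62. In the overexpression pair the 2 probe sets disagreed, with 0.39 at the brightest and −0.14 at the second. Ddit4, an mTORC1 inhibitor induced by stress, differed by −0.63 in the knockdown pair and −0.95 in the overexpression pair, and the controls differed by 1.47. Gadd45a, a growth arrest gene, differed by 0.06 and −0.66. The median of the list was −0.07 in the knockdown pair and −0.18 in the overexpression pair.

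Other enzymes of serine, glycine and folate metabolism held no gene past 1.5-fold among 6 above the filter, with medians of 0.10 in the knockdown pair and −0.10 in the overexpression pair. Psph, which completes serine synthesis after PHGDH and PSAT1, read 76.92 in kdLNC and 56.89 in kdNC, and 38.86 in oeLNC and 55.68 in oeNC. Its differences of 0.44 and −0.52 had the direction and about the size of those of Psat1 and Phgdh, on a probe set of the _at type. Shmt2, the mitochondrial enzyme that splits serine, differed by 0.47 and −0.10 at an _x_at probe set and by 0.08 and −0.36 at its _at probe set. The cytosolic Shmt1 differed by −0.46 and 0.13 at its brightest probe set, and its other probe sets were lower in both pairs. Of 10 proline, glutamate, alanine and aspartate enzymes, Got1 alone passed 1.5-fold, at −0.73 in the overexpression pair with a control difference of 1.26, and the medians were −0.02 and −0.18. Prodh, which degrades proline, differed by −0.39 and −0.29, and Glul, glutamine synthetase, by −0.08 and −0.22.

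The clearest single values in the wider pathway lay outside the 9 members. Cth, which makes cysteine from cystathionine, read 90.52 in kdLNC and 14.87 in kdNC, and 10.58 in oeLNC and 15.76 in oeNC. It was 6.09-fold higher in kdLNC, a log2 difference of 2.61, while the other 3 arrays lay between 10.58 and 15.76, each below the median of its array. With an offset of 16 added before the log, the difference was 1.79. Slc7a3, a transporter of cationic amino acids, read 82.96 in kdLNC and 29.47 in kdNC, and 28.79 in oeLNC and 30.42 in oeNC. It was 2.82-fold higher in kdLNC, and again the other 3 arrays were close together. Each of these genes was measured by a single _at probe set.

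Of the 11 transporters 9 were higher in kdLNC than in kdNC, against 40.7% of all genes, with a median of 0.24. In oeLNC 8 were lower than in its control, against 51.6% of all genes, with a median of −0.08. Slc7a5, the carrier of leucine and other large amino acids, differed by 0.45 and −0.14, and Slc6a9, a glycine carrier, by 0.34 and 0.28. The second probe set of Slc6a9 gave −0.11 and 0.05. In the glutathione and transsulfuration list Cth alone passed 1.5-fold, and the medians were 0.01 over 7 genes in the knockdown pair and 0.05 over 6 in the overexpression pair. Chac2, the constitutive relative of Chac1, differed by 0.36 and −0.48, and Gclm, a subunit of the enzyme that begins glutathione synthesis, by −0.36 and 0.39. The second, dimmer probe set of Gclm gave 0.13 and 0.25, so its probe sets disagree in the knockdown pair.

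Of 19 cytosolic aminoacyl-tRNA synthetases, which load amino acids onto tRNA, 12 were higher in kdLNC than in kdNC, against 40.7% of all genes, with a median of 0.04. In oeLNC 14 were lower than in its control, against 51.6% of all genes, with a median of −0.14. In all, 8 of the 19 were highest in kdLNC and lowest in oeLNC of the 4 arrays, as the 4 member enzymes were, against 10.6% of all genes. Farsb, a subunit of the phenylalanine enzyme, read 255.7 in kdLNC and 140.2 in kdNC, and 87.12 in oeLNC and 169.5 in oeNC at its brightest probe set, and it was the only synthetase past 1.5-fold in each pair. Its _at probe set differed by 0.71 and −0.18. Hars, the histidine enzyme, differed by 0.46 and −0.52 at its brightest probe set and by 0.09 and −0.43 at its _at probe set, and Wars, the tryptophan enzyme, by 0.26 and 0.51.

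**Figure D4:**
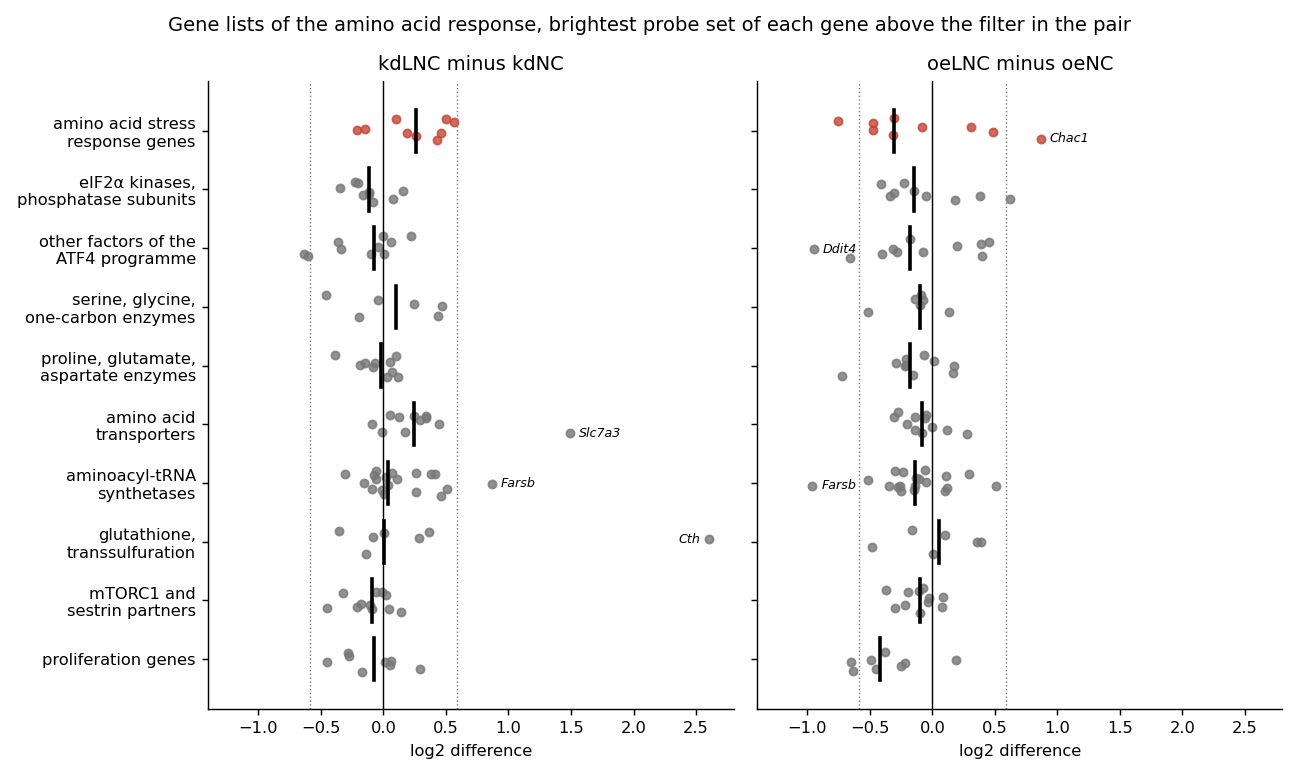
Log2 difference (x axis) of each gene above the filter of the pair, at its brightest probe set, for kdLNC minus kdNC (left) and oeLNC minus oeNC (right), by gene list (rows, with the 9 members in red). Black bars are list medians, dotted lines mark 1.5-fold, and the vertical scatter within a row has no meaning. Cth at 2.61 and Slc7a3 at 1.49 lie far right in the knockdown pair, and the medians of the other lists drawn, which leave out the cell type markers, stay between −0.42 and 0.24.

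None of 11 mTORC1 and sestrin partners passed 1.5-fold in either pair, with medians of −0.09 and −0.10. Castor1, an arginine sensor of that pathway, differed by −0.45 and −0.37, and Depdc5 by 0.14 and −0.22. Sesn3 differed by −0.32 and −0.30 at its brightest probe set and by 0.07 and 0.33 at its second, so the probe sets disagree. Proliferation genes were counted beside the biosynthetic ones, since dividing cells make more of both. None of 8 passed 1.5-fold in the knockdown pair, with a median of −0.08. In the overexpression pair 2, Mcm2 at −0.64 and Mcm5 at −0.65, were lower in oeLNC by that fold, where 5.38% of all genes were. The median of the 8 there was −0.42. Mcm3 differed by −0.49 in that pair. At the median the proliferation genes and the member enzymes were thus both lower in oeLNC than in oeNC. The median in the knockdown pair was above 0 for the enzymes and below 0 for the proliferation genes. Of the 8 proliferation genes, 4 were highest in kdLNC and lowest in oeLNC of the 4 arrays, as the member enzymes were. These were Mki67, Mcm2, Mcm3 and Mcm5 at the brightest probe set, and 10.6% of all genes had that order. For the 3 Mcm genes that probe set is of the _s_at or _x_at type. At the brightest _at probe set the knockdown differences were −0.05 for Mcm2, −0.08 for Mcm3 and −0.06 for Mcm5, so kdLNC was not highest there. The overexpression differences there were −0.70, −0.51 and −0.84. The part of proliferation in the enzyme values was not tested.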

How the data were processed

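The authors measured total RNA of 4 MDSC cultures on Affymetrix mouse expression arrays and deposited linear intensity values per probe set, and the submitters' processing notes name RMA with no version or settings. The lowest deposited intensity was 1.33 and the highest 12309. Log2 differences within each pair, and between oeNC and kdNC, were taken on the deposited values in Python 3.11.15 with pandas 2.3.3, numpy 2.4.6, statsmodels 0.14.6 (loess) and scipy 1.17.1. Figures were drawn with matplotlib 3.10.9. Of all probe sets, 34958 carry 1 gene symbol in the platform annotation and were used, whereas 932 carry several and 9211 carry no symbol. A gene is its brightest probe set, and it entered counts if either array of the pair read it over that array's 50th percentile. The limma test of the methods could not be fitted with 1 array per group, so counts at 1.5-fold and medians describe the lists. Probe set types were read from the ID endings. The computation of differences and counts was tested on simulated data.

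The members and the 19 lists were chosen with earlier results of these data known. The lists name 179 genes, and the 160 of these that have their own probe set were analysed. Named were every member probe set, up to 3 genes of each other list with the largest difference in either pair and, for the 2 members with the widest range, the 5 genes nearest in centred log2 level (Euclidean distance). Markers of monocytes, T and NK cells, erythroid cells, mast cells and basophils, megakaryocytes and stroma were counted too. Median log2 differences for these lists were, for kdLNC minus kdNC and then oeLNC minus oeNC, −0.06 and 0.11 for monocytes, −0.10 and 0.21 for T and NK cells, 0.05 and 0.03 for erythroid cells, −0.14 and 0.44 for mast cells and basophils, −0.03 and −0.02 for megakaryocytes, and −0.18 and 0.33 for stroma. All 5 mast cell and basophil markers were at least 1.5-fold lower in oeNC than in kdNC, where 12.2% of all genes were. Promoter sequences are from RefSeq. Each result was recomputed after loess within the pair, quantile normalization, median centring, an offset of 16 before the log, the mean of all probe sets, exclusion of shared probe set types, other filters, a fold of 2, the mean of both controls and, chosen after seeing the data, centring by probe set type and level.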

Additional observations from a re-analysis of the deposited data

How the results depend on the processing

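No value has a replicate, so leaving out a replicate was not possible. No paired analysis was possible because there is only 1 array for each condition. Signal over background is not known. In the knockdown pair the median of the 9 members, 0.26, was between 0.19 and 0.29 under the other settings, but 0.51 when set against the mean of both controls. No member passed 1.5-fold there, against 1 after median centring, loess or averaging all probe sets of a gene and 2 against the mean of both controls. In the overexpression pair the median of −0.31 was −0.18 with all probe sets averaged, −0.083 without probe sets of shared types, which left 5 members, −0.19 against the mean of both controls and −0.20 after centring by probe set type and level, a setting chosen after seeing the data. The count past 1.5-fold, 2 for Chac1 and Trib3, was 1 with all probe sets averaged and 1 without shared types, Chac1 in each case, 1 against the mean of both controls, where it was Psat1 at −0.63 and neither of the others, and 0 at 2-fold. Of the member values under all settings 134 stayed within 1 control SD of the value given, and 2 did not: against the mean of both controls Atf5 differed by 0.78 in the knockdown pair and −0.19 in the overexpression pair. The sign also turned for Trib3 in the knockdown pair, to −0.019 against the mean of both controls, and for Atf4 there, to 0.05 against that mean and 0.25 with all probe sets averaged. Over all named genes, members included, 43 values changed sign, 25 of them against the mean of both controls. Against that mean, F13a1 and Got1 in the knockdown pair turned to −0.019 and −0.51, for example. Ccr3 and Ms4a2 in the overexpression pair turned to −0.21 and −0.53. Without shared types, Ppp1r15b in the overexpression pair turned to −0.22. Farsb in that pair, −0.96 as given, was −0.36 with all probe sets averaged and −0.18 without shared types. The cause was not tested.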
